A study of Mus musculus with 20 samples.

Results

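The urea cycle genes described here are the 9 genes Nags, Cps1, Otc, Ass1, Asl, Arg1, Slc25a15, Slc7a2 and Gls2. They were chosen by symbol as the enzymes and transporters that carry ammonia nitrogen into urea, and each matched 1 of the 48440 genes of the liver count table. All 9 belonged to the 16071 genes that edgeR's filter on low counts kept. Liver RNA was sequenced from 20 wild-type female mice, 8 weeks old and of strain C57BL/6 by the labels (C57BL/6J in the study's methods), 5 mice in each of 4 groups. The mice received corticosterone (CORT, the main glucocorticoid of rodents) or vehicle in the drinking water, together with intraperitoneal injections of a monoclonal antibody against acyl-CoA-binding protein (αACBP) or of an IgG2a isotype control antibody, and tissue was taken after 5 weeks. The isotype groups are called Isotype + Vehicle and Isotype + CORT, the antibody groups αACBP + Vehicle and αACBP + CORT, and the livers of a group are named by their replicate numbers.

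The urea cycle is the route by which the liver turns toxic ammonia into urea, mainly in hepatocytes around the portal vein. It starts in mitochondria, where ammonia and bicarbonate are joined and the product is coupled to ornithine, and it ends in the cytosol, where arginine is split into urea and ornithine. Glucocorticoids and glucagon are known to raise the expression of its enzymes when amino acids are broken down for glucose synthesis. The comparisons ask how CORT changed these genes under the control antibody, whether neutralizing ACBP changed them with or without CORT, and whether the antibody altered the response to CORT.

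The livers gave between 14934926 and 20299999 counts on genes (median 16996358). Levels are CPM (counts of a gene relative to the size of its library) scaled by TMM, edgeR's correction for composition, and 3 counts corresponded to at most 0.201 CPM, a floor that covers counting error only. The 9 genes took between 0.395% and 1.12% of all gene counts of a liver. Defining hepatocyte markers such as Alb were abundant throughout, with the 8 markers tested adding up to between 39070 and 142000 CPM. Fkbp5, a direct target gene of the glucocorticoid receptor, lay between 26.1 and 51.1 CPM in the Isotype + Vehicle livers and between 67.5 and 177 CPM in the Isotype + CORT livers, a rise of 1.70 on the log2 scale (adjusted p = 0.000722, edgeR). It was the only gene that passed of 6 glucocorticoid response genes, and the others (Tsc22d3, Per1, Tat, Zbtb16 and Sgk1) had negative values, with a median of -0.40 over the 6. αACBP + Vehicle replicate 5 stood apart from the other livers. It had the largest TMM factor (1.29), the largest share of reads not aligned (5.75%), the lowest mean correlation with its own group (r = 0.874) and the lowest sum of hepatocyte markers (39070 CPM).

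0 of the 9 urea cycle genes passed the test in any of the 6 comparisons. The test was edgeR's quasi-likelihood test in 1 model of the 4 groups, and the limit for passing was an adjusted p of 0.05 (Benjamini-Hochberg, over all 16071 genes). Under the isotype antibody the CORT livers had lower fitted levels of 9 of 9 genes (49.8% of all genes were lower). Under vehicle the antibody livers had lower fitted levels of 7 of 9 (51.2% of all genes). The genes varied together from liver to liver, so that these are not 9 separate signs. For Asl, Slc25a15 and Slc7a2 the sign for CORT under isotype turned in fits with 1 liver left out. Where a gene passed, it did so with another tool or filter, in a fit of the groups compared alone, or after 1 liver was left out, as given with each gene below. Each comparison shares a group with others, so that the values stand side by side and do not support each other.

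**Figure D1:**
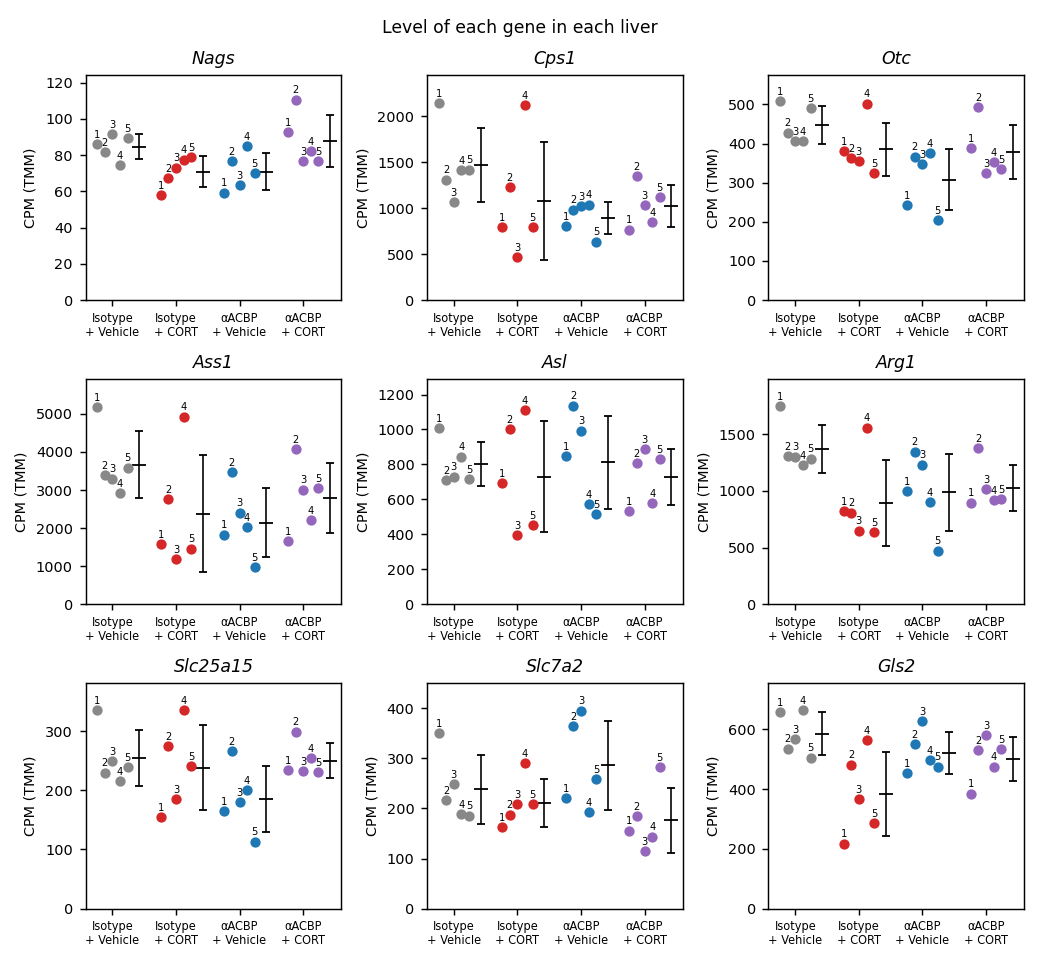
Level of each of the 9 urea cycle genes (vertical axis, TMM-scaled CPM from 0) in each of the 20 livers, by treatment group. Points are livers with their replicate numbers, and the bars beside them are the mean and SD of 5 livers. Isotype + CORT replicate 4 was the highest of its group in 8 of the 9 panels.

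The promoter sequences of 4 of the 9 genes (Nags, Otc, Ass1 and Slc25a15, which has 2 windows) were found among 32851 RefSeq promoter windows of the mouse build GRCm38.p6. Each window runs from 250 bases before to 50 bases after a gene's start. Windows of 3 genes are shown, because Otc, Ass1 and Slc25a15 had an unadjusted p of 0.05 or less for the antibody under vehicle and their base composition and motifs differ. Capitals mark the E-box CACGTG, a hexamer bound by basic helix-loop-helix factors, and a window without capitals holds none. Each is written 5′ to 3′ on the gene's own strand.
Otc, chrX:10252055-10252354, plus strand: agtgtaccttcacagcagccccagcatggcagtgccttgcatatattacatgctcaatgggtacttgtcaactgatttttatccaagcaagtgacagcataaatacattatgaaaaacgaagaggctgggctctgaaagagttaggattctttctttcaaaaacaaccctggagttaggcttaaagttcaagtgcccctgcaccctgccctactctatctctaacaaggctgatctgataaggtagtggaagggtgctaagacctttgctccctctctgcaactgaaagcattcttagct
Ass1, chr2:31470020-31470319, plus strand: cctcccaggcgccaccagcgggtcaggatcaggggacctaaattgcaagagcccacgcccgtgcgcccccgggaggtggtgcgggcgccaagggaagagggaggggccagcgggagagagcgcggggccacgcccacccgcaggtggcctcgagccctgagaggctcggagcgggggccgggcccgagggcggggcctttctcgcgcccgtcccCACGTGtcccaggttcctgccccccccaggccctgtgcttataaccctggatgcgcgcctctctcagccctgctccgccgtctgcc
Slc25a15 (second window), chr8:22398228-22398527, minus strand: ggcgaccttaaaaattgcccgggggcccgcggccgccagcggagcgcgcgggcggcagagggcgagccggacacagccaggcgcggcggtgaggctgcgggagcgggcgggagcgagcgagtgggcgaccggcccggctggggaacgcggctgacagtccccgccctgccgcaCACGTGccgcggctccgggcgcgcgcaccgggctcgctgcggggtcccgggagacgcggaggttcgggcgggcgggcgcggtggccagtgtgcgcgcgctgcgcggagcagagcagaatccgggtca

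Otc has the AT-rich window of these, with 44.3% G and C, against 74.0% for Ass1, 79.0% for the window shown of Slc25a15 and a median of 52.7% over all windows. The E-box began 36 bases before the start of Ass1 and 77 bases before that of Slc25a15, and 7.15% of all windows held CACGTG. 4 other motifs were searched on both strands. These were AGAACA, a hexamer to which the glucocorticoid receptor binds (in 19% of all windows), TTGCNNAA, bound by C/EBP factors (10.8%), the CCAAT box (CCAAT, 37.4%) and the TATA box (TATAAA, 13.6%). None of these 4 was found in the 5 windows of the members, and the other window of Slc25a15 and that of Nags also held no E-box. A match is a description of the sequence, and a missing match says only that these letters were not in the window.

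Nags makes N-acetylglutamate, the obligatory activator of the first enzyme of the cycle. It lay at 84.6 ± 6.85 CPM (SD, n = 5) in Isotype + Vehicle, 70.9 ± 8.59 in Isotype + CORT, 70.9 ± 10.2 in αACBP + Vehicle and 87.8 ± 14.3 in αACBP + CORT. The 3 highest livers in the αACBP + CORT group had 110, 92.6 and 82.2 CPM, and all groups overlapped. Its difference between the antibodies under CORT was 0.31 (SE 0.15, adjusted p = 0.392, edgeR). Its CORT effect differed between the antibodies by 0.56 on the log2 scale (SE 0.21, unadjusted p = 0.0121, adjusted p = 0.28, edgeR), and this was the smallest p of the 9 genes in the test of the interaction.

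Cps1 encodes the mitochondrial enzyme that makes carbamoyl phosphate from ammonia and sets the pace of the cycle. In the Isotype + Vehicle livers it was at 2146, 1312, 1065, 1414 and 1419 CPM in replicates 1 to 5. The Isotype + CORT livers had 793, 1230, 469, 2121 and 794 CPM, so that 1 CORT liver lay near the highest control and another was the lowest of all 20. Under the antibody the vehicle livers had 807, 984, 1021, 1038 and 636 CPM, all below the 5 Isotype + Vehicle livers. Without TMM scaling these groups overlapped. αACBP + Vehicle replicates 3 and 4 then had 1061 and 1062 CPM, and Isotype + Vehicle replicate 3 had 1034 CPM. The αACBP + CORT livers had 766, 1350, 1031, 849 and 1124 CPM. Antibody against isotype under vehicle gave a log2 fold change of -0.71 (SE 0.28, 95% confidence interval -1.29 to -0.14, adjusted p = 0.131, edgeR). Fitted on these 2 groups alone, Cps1 passed (-0.72, adjusted p = 0.041, edgeR), as did 6.9% of the genes tested. CORT under isotype gave -0.44 (SE 0.28, adjusted p = 0.492, edgeR) and moved both ways with 1 liver left out. It was -0.84 without Isotype + CORT replicate 4, the liver at 2121 CPM, -0.25 without Isotype + CORT replicate 3, the lowest liver, and -0.27 without Isotype + Vehicle replicate 1, the highest control.

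Otc joins carbamoyl phosphate to ornithine to form citrulline. In Isotype + Vehicle it was at 509, 428, 406, 407 and 490 CPM. In αACBP + Vehicle its levels were 242, 367, 347, 375 and 205 CPM, again all below the control livers. Isotype + CORT livers had 381, 363, 355, 502 and 325 CPM and αACBP + CORT livers 388, 494, 324, 352 and 335 CPM, and each of these groups had 1 liver, replicate 4 and replicate 2, among the control values. Under vehicle the antibody difference in Otc was -0.54 (SE 0.18, 95% confidence interval -0.91 to -0.18, adjusted p = 0.0703, edgeR), the smallest adjusted p of all members in that comparison. Otc passed with DESeq2's Wald test (adjusted p = 0.0185, 14.3% of genes called), when every liver had to hold at least 10 counts (-0.53, adjusted p = 0.0497, edgeR, 10.3% called), and with limma's voom and quality weights for the livers (-0.45, adjusted p = 0.0445, 11.5% called). The 2 lowest livers were replicates 1 and 5, and without replicate 5 the difference was -0.44.

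Ass1 forms argininosuccinate from citrulline and aspartate, the slowest step of the cytosolic part. It was at 5168, 3391, 3299, 2912 and 3585 CPM in Isotype + Vehicle. In Isotype + CORT it was at 1579, 2757, 1192, 4929 and 1463 CPM, so that 4 of 5 livers lay below every control and replicate 4 lay above 4 of the 5 controls. αACBP + Vehicle livers had 1826, 3463, 2410, 2034 and 974 CPM, and αACBP + CORT livers 1662, 4076, 3007, 2218 and 3047 CPM. The highest liver of a group held up to 4.13 times as much Ass1 RNA as the lowest (Isotype + CORT). CORT under isotype gave -0.62 (SE 0.35, adjusted p = 0.417, edgeR) and lay between -1.07 (without Isotype + CORT replicate 4) and -0.45 (without Isotype + CORT replicate 3) with 1 liver left out, and the antibody under vehicle gave -0.78 (SE 0.35, adjusted p = 0.202, edgeR). Its interaction, 1.01 (SE 0.49, adjusted p = 0.479, edgeR), was the largest of the 9 genes. Of the 5840 words of 100 bases in all annotated Ass1 transcripts together, 622 (10.7%) also occur in the pseudogene Gm5424. The counts of Ass1 could therefore hold or lack reads of that copy. The share within a single Ass1 transcript was not counted and can be larger.

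Asl splits argininosuccinate into arginine and fumarate. Its group means were the closest of the 9 genes, at 802 ± 128 CPM (SD, n = 5) in Isotype + Vehicle, 731 ± 320 in Isotype + CORT, 813 ± 267 in αACBP + Vehicle and 727 ± 159 in αACBP + CORT. The 5 Isotype + CORT livers covered the range from 395 to 1112 CPM and took in nearly the whole range of the other groups. The fitted differences lay between -0.16 and 0.02, and the adjusted p-values from edgeR were 0.862 or higher. The intervals were wide all the same: the antibody difference under vehicle could lie between -0.50 and 0.54.

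Arg1, the liver arginase, releases urea from arginine and returns ornithine to the cycle. Isotype + Vehicle livers had 1743, 1305, 1301, 1225 and 1282 CPM. Isotype + CORT livers had 823, 807, 649, 1556 and 636 CPM, and 4 of these 5 lay below the lowest control while replicate 4 lay above 4 of the 5 controls. αACBP + Vehicle livers had 998, 1345, 1230, 898 and 472 CPM, and αACBP + CORT livers 896, 1375, 1012, 919 and 929 CPM. CORT under isotype gave -0.62 (SE 0.24, 95% confidence interval -1.11 to -0.12, unadjusted p = 0.0165, adjusted p = 0.178, edgeR). Without Isotype + CORT replicate 4 the value was -0.91 and passed (adjusted p = 0.0271, edgeR), as did 2.36% of genes in that fit. 23.8% of the exon bases of Arg1 lie opposite exons of Gm36172, and the strand setting of the counting is not given in the sources used here. Without strand, the reads of such a pair cannot be told apart.

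Slc25a15 is the mitochondrial carrier that brings ornithine in and lets citrulline out. It was at 254 ± 47.4 CPM (SD, n = 5) in Isotype + Vehicle, 238 ± 71.6 in Isotype + CORT, 185 ± 55.9 in αACBP + Vehicle and 250 ± 29.0 in αACBP + CORT. The lowest liver of the αACBP + Vehicle group was replicate 5 with 113 CPM and the highest replicate 2 with 267 CPM, above 4 of the 5 controls. The antibody difference under vehicle was -0.46 (SE 0.21, adjusted p = 0.196, edgeR) and -0.33 without that lowest liver. CORT under the antibody gave 0.44 (SE 0.21, adjusted p = 0.372, edgeR) and 0.30 without the same liver.

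Slc7a2 takes up arginine, ornithine and lysine across the cell membrane. It was at 220, 364, 396, 193 and 259 CPM in αACBP + Vehicle and at 155, 184, 115, 144 and 283 CPM in αACBP + CORT. All but replicate 5 of the CORT livers lay below the lowest vehicle liver. The 10 isotype livers lay between 162 and 351 CPM. CORT under the antibody gave -0.70 (SE 0.24, 95% confidence interval -1.18 to -0.22, unadjusted p = 0.00585, adjusted p = 0.185, edgeR). Without αACBP + CORT replicate 5 the value was -0.94 and passed (adjusted p = 0.0322, edgeR), as did 1.58% of genes in that fit. The fitted difference had the opposite sign to those of 6 other members in this comparison.

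Gls2, the liver glutaminase, frees ammonia from glutamine inside mitochondria. Isotype + Vehicle livers had 659, 536, 567, 665 and 505 CPM. Isotype + CORT livers had 217, 482, 368, 564 and 285 CPM, of which only replicate 4 lay within the control range. The antibody groups lay between 454 and 628 CPM with vehicle and between 385 and 582 CPM with CORT. CORT under isotype gave -0.61 (SE 0.20, 95% confidence interval -1.02 to -0.21, unadjusted p = 0.00458, adjusted p = 0.0895, edgeR), the smallest adjusted p of the members in that comparison. Gls2 passed with DESeq2's Wald test (-0.62, adjusted p = 0.0334, 5.91% of genes called) and, in edgeR, without Isotype + CORT replicate 4 (-0.80, adjusted p = 0.0279). Its exons lie opposite those of Spryd4 over 16.6% of their bases.

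**Figure D2:**
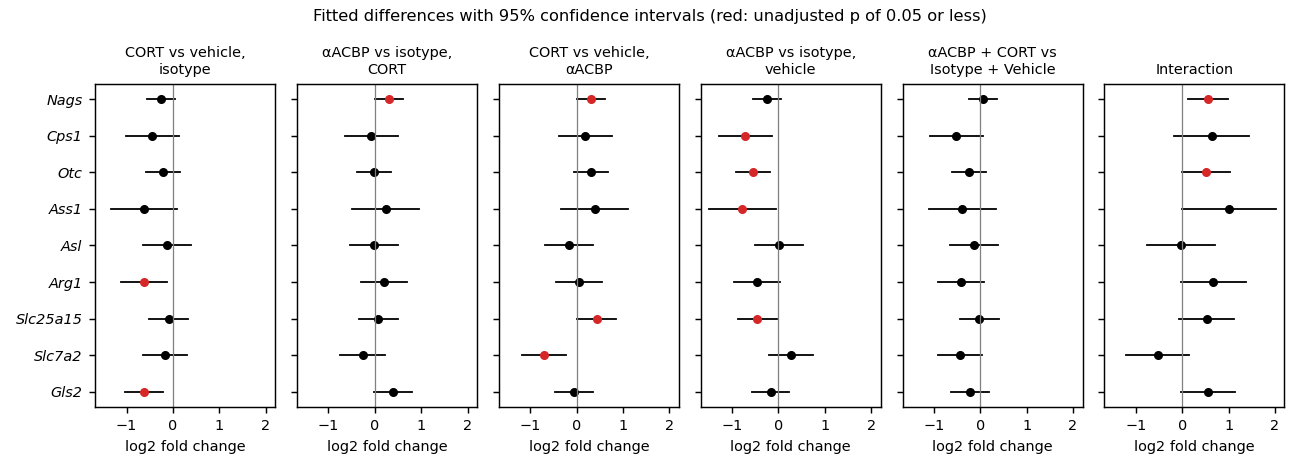
Fitted log2 fold change (point) of each urea cycle gene with its 95% confidence interval (line) in 5 comparisons of 2 groups and in the interaction. The interaction is the CORT effect under αACBP minus that under isotype, and red points have an unadjusted p of 0.05 or less from edgeR. All 9 points lie below 0 for CORT under isotype (49.8% of all genes), and 7 of 9 lie below 0 for the antibody under vehicle (51.2% of all genes).

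Taking the genes as a list, CORT under isotype had a median log2 fold change of -0.25 over the 9 genes, against 0.0022 over all genes tested, and 49.8% of all genes had a negative value. 0 of 9 passed with edgeR, against 3.2% of all genes. At an unadjusted p of 0.05 or less, 2 of 9 were lower (Arg1 and Gls2), against 15.6% of all genes in either direction. DESeq2 called 1 of 9, against 5.91%. In 0 of the 9 did the 5 CORT livers and the 5 vehicle livers not overlap, against 5.04% of all genes.

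For the antibody under vehicle the median was -0.46 over the 9 genes and -0.019 over all genes, of which 51.2% had a negative value. 0 of 9 passed with edgeR (5.14% of all genes), 4 had an unadjusted p of 0.05 or less (Cps1, Otc, Ass1 and Slc25a15, against 20.6% of all genes), and 1 passed with DESeq2 (14.3%). The groups did not overlap in 2 of 9, Cps1 and Otc, against 7.13% of all genes. Without TMM scaling the groups overlapped for Cps1. αACBP + Vehicle replicate 5, the liver that stood apart, was the lowest of its group in 6 of the 9 genes. Without TMM scaling this liver was no longer the lowest for Otc (264.8 CPM against 260.7 in replicate 1) or Asl (664.9 CPM against 587.5 in replicate 4). The part of its low hepatocyte marker RNA in these values was not tested. Without it the differences of Cps1, Otc, Ass1 and Slc25a15 stayed negative, and those of Otc and Ass1 were -0.44 and -0.60.

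With the antibody present, CORT against vehicle gave positive values in 6 of 9 and a median of 0.19 (49.5% of all genes were negative). 0 of 9 passed (0.305% of all genes), 3 had an unadjusted p of 0.05 or less (Nags and Slc25a15 higher, Slc7a2 lower, against 12.7%), DESeq2 called 0 (3.15%), and the groups overlapped in all 9 (2.74% of all genes did not overlap). Antibody against isotype under CORT gave positive values in 5 of 9 and a median of 0.07 (49% of all genes were negative). 0 of 9 passed with edgeR (0.958%), 1 had an unadjusted p of 0.05 or less (Nags, against 12.5%), DESeq2 called 0 (2.91%), and 0 did not overlap (3.22%). Single livers moved these values in both directions. Ass1, at 0.23 over all livers, was at 0.68 without Isotype + CORT replicate 4 and at 0.060 without αACBP + CORT replicate 2. Arg1, at 0.20, was at 0.50 and 0.071 in the same fits, and both genes were also lower without Isotype + CORT replicate 3 (0.065 and 0.10) or 5 (0.10 and 0.098). Ass1 was in addition at 0.12 without Isotype + CORT replicate 1 and at 0.37 without αACBP + CORT replicate 1. Cps1, at -0.08, was at 0.32 without Isotype + CORT replicate 4 and at -0.27 without Isotype + CORT replicate 3.

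Between αACBP + CORT and Isotype + Vehicle, 8 of 9 values were negative (49.7% of all genes), with a median of -0.24. 0 of 9 passed with edgeR (0.0809% of all genes), 0 had an unadjusted p of 0.05 or less (7.59%), DESeq2 called 0 (1.32%), and 0 did not overlap (3.31%). The interaction was positive in 7 of 9 with a median of 0.56, against 0.033 over all genes, of which 47.5% had a negative value. 0 of 9 passed with edgeR (0.143%), 2 had an unadjusted p of 0.05 or less (Otc and Nags, against 10.6%), and DESeq2 called 0 (2.28%). The intervals of the interaction were wide, from -0.0058 to 2.03 for Ass1 and from -0.76 to 0.70 for Asl.

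The spread among livers of a group was uneven. In Isotype + CORT the SD of log2 CPM had a median of 0.523 over the 9 genes, against 0.324 over the 2963 genes at 50 CPM or more. The corresponding values were 0.45 and 0.284 in αACBP + Vehicle, 0.255 and 0.24 in αACBP + CORT, and 0.218 and 0.228 in Isotype + Vehicle. Cps1 reached the widest range, 4.52 times from the lowest to the highest Isotype + CORT liver. In that group replicate 4 was the highest liver for 8 of 9 genes, the exception being Nags. Replicate 1 was the highest for 7 of 9 in Isotype + Vehicle, and replicate 2 for 6 of 9 in αACBP + CORT. Added over the 9 genes, the Isotype + CORT livers lay between 3896 and 11490 CPM with a median of 4862, and the Isotype + Vehicle livers between 7945 and 12010 CPM with a median of 8211.

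**Figure D3:**
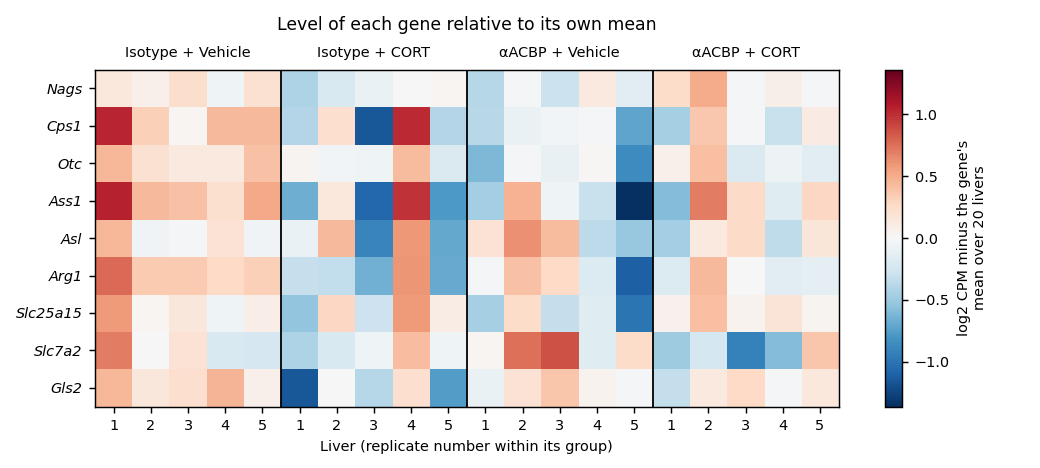
Log2 CPM of each gene minus its mean over the 20 livers (colour), with genes in rows and livers in columns by group and replicate number. Columns tend to be of 1 colour: Isotype + CORT replicate 4 and Isotype + Vehicle replicate 1 are high in most rows, and αACBP + Vehicle replicate 5 is low in most.

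The genes varied together from liver to liver. Pairs of other genes were not set beside them, so whether this is particular to the 9 was not tested. Of the 36 pairs, 34 had a positive correlation of log2 CPM over the 20 livers, with a median Pearson r of 0.58 (range -0.14 to 0.92). Ass1 and Arg1 were the closest pair (r = 0.918, Spearman's rho = 0.923), followed by Cps1 and Ass1 (r = 0.911, rho = 0.883). With the group means removed, the median was 0.56, and 21 of 36 pairs were above 0.5. Without the 2 livers farthest from the median (αACBP + Vehicle replicate 5 and Isotype + CORT replicate 3), the median was 0.556. Nags and Slc7a2 followed the others least, with r of 0.501 and 0.388 to the mean of the 9 genes, in which each gene takes part, and the pair of them had the lowest r of all (-0.139). The points of these correlations share libraries and scaling factors, and the values are given as a description.

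Among 8065 other genes at 10 CPM or more, the profile most like the mean of the 9 genes was that of Sdhb, a subunit of succinate dehydrogenase (r = 0.897, n = 20 livers). It was followed by Aldh1l1 (0.857), a folate enzyme, Qprt (0.843), an enzyme of NAD synthesis, Mat1a (0.843), the liver enzyme for S-adenosylmethionine, and Mpst (0.817), a sulfur transferase. For Cps1 the closest was Aldh1l1 (0.845), for Otc Apof (0.927), an apolipoprotein, for Ass1 Sdhb (0.882), and for Asl Hpd (0.725), an enzyme of tyrosine breakdown. For Arg1 it was Spryd4 (0.88), for Nags Bphl (0.831), for Slc25a15 Pecr (0.92), for Slc7a2 Cyp2a5 (0.74), and for Gls2 Ivd (0.93), an enzyme of leucine breakdown.

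Per kilobase of the canonical transcript (GENCODE M39), the order of mean levels over the 20 livers was Ass1 (1561 CPM per kb), Arg1 (664), Asl (289), Cps1 (201), Gls2 (191), Otc (161), Slc25a15 (66.5), Nags (38.7) and Slc7a2 (28.8). Ass1 lay above Arg1 and Arg1 above Asl in 20 of 20 livers, and Asl lay above Cps1 in 19. Cps1 lay above Gls2 in 8 of 20 livers only, so that their order is not fixed by these data. Lengths taken over all exons moved Cps1 to rank 3 and Asl to rank 4, and Nags to rank 7 and Slc25a15 to rank 8.

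**Figure D4:**
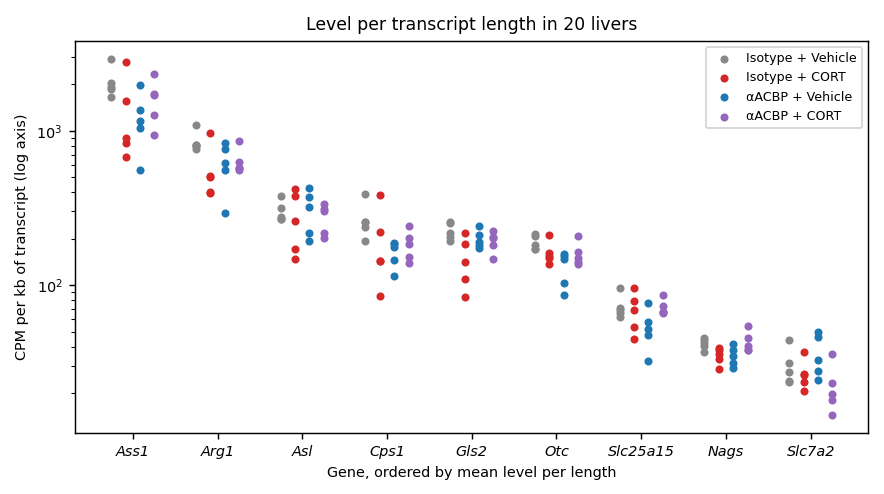
CPM per kb of canonical transcript (vertical log axis) of the 9 genes in each of the 20 livers, ordered by mean and coloured by group. Ass1 has the highest mean (1561) and Slc7a2 the lowest (28.8), and the points of Cps1, Gls2 and Otc lie at similar heights.

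On GRCm39 the 9 genes lie on 7 chromosomes. Cps1 is at chr1:67161988-67270418, Ass1 at chr2:31352181-31410862, Asl at chr5:130040099-130058088, Slc25a15 at chr8:22865516-22889423, Slc7a2 at chr8:41315431-41375345, Arg1 at chr10:24791118-24803817, Gls2 at chr10:128030316-128045873, Nags at chr11:102036339-102040303 and Otc at chrX:10118503-10187265. All are protein-coding, and the counts cover their exons. Exons on the opposite strand overlap 19.5% of the exon bases of Nags, 5.78% of Slc25a15 and 1.01% of Asl, and none of Cps1, Otc, Ass1 or Slc7a2.

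The genes around the cycle were taken from 5 lists of 87 genes, of which 81 were tested. They cover enzymes of glutamine and glutamate, enzymes that use arginine and ornithine outside the cycle, transporters of amino acids and urea, partners of the mitochondrial and cytosolic steps, and transcription factors and hormone receptors known for these genes. For CORT under isotype 1 of 81 rose and 0 fell (3.2% of all genes passed in either direction), for the antibody under CORT 0 rose and 1 fell (0.958%), for CORT under the antibody 0 rose and 1 fell (0.305%), and for the antibody under vehicle 3 rose and 2 fell (5.14%). These counts are small and are not read as a result about the lists. At an unadjusted p of 0.05 or less there were 22 of 81 for CORT under isotype (15.6% of all genes). There were 12 for the antibody under CORT (12.5%), 14 for CORT under the antibody (12.7%) and 22 for the antibody under vehicle (20.6%). In the same order DESeq2 called 7 (5.91%), 2 (2.91%), 3 (3.15%) and 10 (14.3%). 0 of 81 passed with edgeR between αACBP + CORT and Isotype + Vehicle, where 7 had an unadjusted p of 0.05 or less (7.59% of all genes), and in the interaction, where 8 did (10.6%), and DESeq2 called 0 in both.

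Slc25a13 encodes citrin, the carrier that brings aspartate out of mitochondria for Ass1. It was at 122, 110, 108, 79.5 and 122 CPM in Isotype + Vehicle and at 170, 157, 135, 153 and 189 CPM in Isotype + CORT. With the antibody it was at 95.7, 118, 85.9, 93.0 and 93.1 CPM in the vehicle livers and at 104, 131, 111, 91.2 and 84.9 CPM in the CORT livers. The 5 Isotype + CORT livers lay above all other 15 livers. It rose by 0.57 with CORT under isotype (SE 0.16, adjusted p = 0.0411, edgeR) and fell by 0.62 with the antibody under CORT (SE 0.16, adjusted p = 0.0491). Its interaction did not pass (-0.47, adjusted p = 0.454). With 1 liver left out, the first call held in 2 of 10 fits, those without Isotype + Vehicle replicate 1 or Isotype + CORT replicate 3, and the second in 2 of 10, those without Isotype + CORT replicate 3 or αACBP + CORT replicate 2.

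Slc38a3 encodes a sodium-coupled glutamine transporter that is abundant in liver. αACBP + Vehicle livers had 3104, 3746, 3947, 3253 and 4168 CPM, all above the 5 Isotype + Vehicle livers at 1568, 2241, 2842, 2619 and 2025 CPM. αACBP + CORT livers had 1245, 1625, 1759, 1267 and 2918 CPM, and Isotype + CORT livers 1232, 1673, 1554, 1485 and 1304 CPM. It rose by 0.69 with the antibody under vehicle (SE 0.21, adjusted p = 0.0498, edgeR) and fell by 1.05 with CORT under the antibody (SE 0.21, adjusted p = 0.023). The first call held in 2 of 10 fits with 1 liver left out, those without Isotype + Vehicle replicate 3 or 4, and the second in 4 of 10, without αACBP + Vehicle replicate 1, 2 or 4 or αACBP + CORT replicate 5.

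Under vehicle the antibody livers had less Mdh1, the cytosolic malate dehydrogenase that acts on malate made from the fumarate that Asl releases. Their levels were 158, 237, 237, 236 and 108 CPM, against 598, 437, 423, 259 and 463 CPM in Isotype + Vehicle, and the groups did not overlap. The log2 fold change was -1.16 (SE 0.26, adjusted p = 0.0146, edgeR), and the call was lost without Isotype + Vehicle replicate 1 or αACBP + Vehicle replicate 1. Azin2, an antizyme inhibitor that protects ornithine decarboxylase, was at 5.47, 4.17, 13.9, 8.20 and 8.15 CPM with the antibody and at 0.42, 0.73, 1.98, 0.88 and 0.48 CPM without it, the latter close to the floor. It rose by 3.13 (SE 0.71, adjusted p = 0.0138, edgeR), and the call was lost without Isotype + Vehicle replicate 1 or 5.

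In the same comparison, with 5.14% of all genes passing, 1 of the 17 transcription factors and receptors rose and 1 fell. Cebpb, a C/EBP factor of the stress and acute-phase response, was at 415, 337, 185, 101 and 216 CPM with the antibody and at 70.2, 125, 190, 139 and 85.2 CPM without it, a rise of 1.04 (SE 0.28, adjusted p = 0.0324, edgeR) with overlapping groups. Ghr, the growth hormone receptor, was at 222, 285, 357, 326 and 284 CPM with the antibody and at 485, 411, 398, 362 and 447 CPM without it, and it fell by 0.51 (SE 0.15, adjusted p = 0.0444, edgeR). With 1 liver left out, the call of Cebpb held in 4 of 10 fits and that of Ghr in 3 of 10, and both were lost without Isotype + Vehicle replicate 1, 2 or 5 or αACBP + Vehicle replicate 1, 2 or 5. The call of Ghr was also lost without Isotype + Vehicle replicate 3. Cebpa and Gcgr, the glucagon receptor, had values of 0.43 and 0.43 with CORT under isotype and did not pass (adjusted p = 0.157 and 0.251, edgeR).

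**Figure D5:**
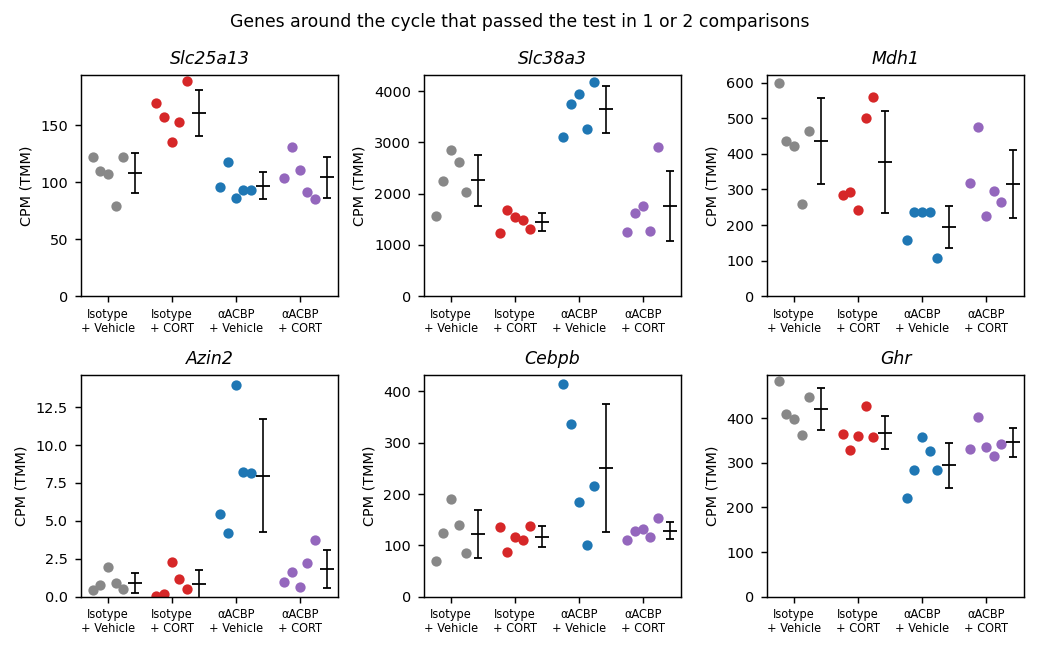
Level (vertical axis, TMM-scaled CPM from 0) of the 6 genes around the cycle that passed edgeR's test in 1 or 2 comparisons, in each of 20 livers by group. Points are livers in the order of their replicate numbers, with the mean and SD of 5 livers beside them. Slc25a13 is highest in Isotype + CORT, and Slc38a3, Azin2 and Cebpb have their highest means in αACBP + Vehicle.

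The enzymes that share ammonia or ornithine with the cycle did not pass in any comparison. Glul, which makes glutamine around the central vein, was at 789 ± 173 CPM (SD, n = 5) in Isotype + Vehicle and 1034 ± 328 in Isotype + CORT, and its fitted difference of 0.39 had an adjusted p of 0.41 (edgeR). Glud1, glutamate dehydrogenase, had 727 ± 137 and 973 ± 221 CPM (0.42, adjusted p = 0.286, edgeR). Oat, which turns ornithine into glutamate semialdehyde, had 1000 ± 199 and 721 ± 294 CPM (-0.47, adjusted p = 0.476, edgeR). Of the 18 enzymes of glutamine, glutamate and ammonia tested, 13 had negative values with CORT under isotype (49.8% of all genes), with a median of -0.25. The median was also -0.25 for the 9 urea cycle genes, and it was 0.0022 for all genes tested.

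Markers of other liver cells differed between the same groups. With CORT under isotype 7 of 12 markers of Kupffer cells and macrophages fell, against 3.2% of all genes called in either direction, and 12 of 12 had negative values (median -1.19). Their summed level was between 159 and 461 CPM in Isotype + CORT against 475 to 939 CPM in Isotype + Vehicle. With the antibody under CORT 3 of 12 rose (Clec4f, Csf1r and C1qa, against 0.958% of all genes) and 12 of 12 had positive values (median 1.05), and their sum in αACBP + CORT was between 600.1 and 839 CPM. Of 10 lymphocyte markers tested, 10 had negative values with CORT under isotype (median -1.56) and 1, Ptprc, passed. Their sum lay between 7.55 and 19.8 CPM against 32.7 to 55.7 CPM in Isotype + Vehicle. With the antibody under CORT, Ptprc rose and 8 of the 10 had positive values (median 1.02).

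With the antibody under vehicle, where 5.14% of all genes passed, 2 of 8 stellate cell markers fell, Dcn (-0.89, adjusted p = 0.0207, edgeR) and Lrat (-1.01, adjusted p = 0.0332, edgeR). Their sum lay between 154 and 185 CPM against 178 to 280 CPM in Isotype + Vehicle. 0 of 6 cholangiocyte markers passed, with a median of -1.04 and a sum between 28.0 and 73.4 CPM against 63.4 to 97.5 CPM. Among hepatocyte genes, 1 of 12 periportal markers, Ctsc, fell (-0.81, adjusted p = 0.0268, edgeR), and their sum, mostly Alb, lay between 30860 and 70230 CPM against 54920 to 96000 CPM. 8 of the 12 periportal markers had negative values and 4 positive ones, with a median of -0.518. The urea cycle genes had a median of -0.46 in this comparison. Of 8 defining hepatocyte markers 6 were negative (median -0.317), and of 14 pericentral markers 9 were (median -0.123), against 51.2% of all genes. The part of these markers in the values of the urea cycle genes was not tested. In whole-liver RNA, fewer cells of a type and less RNA per cell cannot be told apart.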

How the data were processed

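Liver RNA of 20 mice, 5 per group by their labels, was sequenced as read pairs. The authors used HISAT2 for alignment and HTSeq for counting (union mode, pairs on several genes kept for each), and the deposited table holds raw counts of each gene in each liver. The build is given as GRCm39 in the methods and as mm10 in the submitters' processing notes. The annotation release is not given in the sources used here, and 91.4% of the gene identifiers were found in GENCODE M39, which gave lengths, GRCm39 positions and overlaps. Lines that name no gene stayed out. Counts on genes made up 36.6% to 40.4% of the sum of all lines per liver. Pairs on no annotated feature made up 42.26% to 45.15%.

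Counts were fitted with edgeR 4.0.16 in R 4.3.3 (TMM, filterByExpr, robust quasi-likelihood, 1 model of 4 groups, Benjamini-Hochberg over 16071 genes, no limit on the fold change). Levels in CPM use TMM, and standard errors and intervals come from the fit. DESeq2 1.42.0 and limma 3.58.1 gave alternatives, with other filters and size factors, 1 liver left out and the replicate number as a block. The programs were tested on simulated counts. All 9 members were named, with the listed genes that passed, up to 6 per list, a set of related enzymes, regulators and transporters named whether they passed or not, and, as most alike, the genes with the highest correlation at 10 CPM or more. Members and lists were chosen with earlier results of these data known. Each p-value sets a difference against the spread between these livers, estimated over the 4 groups in 1 model. The mice were group-housed by the study's methods. The sample labels give no cage, so that cages could not be taken into account.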

Additional observations from a re-analysis of the deposited data

Results flagged for a closer look

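In 4 of 36 combinations of gene and group, 1 liver lay apart from the other 4 by more than 0.71 of the group's range (Dixon's criterion for 5 values). The criterion flags about 1 in 20 groups of independent, normally distributed values. Here it was used on CPM without logarithms and on genes that vary together, so that the 4 of 36 cannot be read against that rate. All 4 were the highest liver of their group. For Arg1 these were Isotype + Vehicle replicate 1 with 1743 CPM, Isotype + CORT replicate 4 with 1556 CPM, where the next liver had 823 CPM, and αACBP + CORT replicate 2 with 1375 CPM. For Slc25a15 it was Isotype + Vehicle replicate 1 with 336 CPM, where the next liver had 249 CPM. No explanation of these livers was tested.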

How the results depend on the processing

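The number of members that passed moved in 3 of the 6 comparisons when a setting other than the p limit was changed. Shares of all genes called in the same setting stand in brackets. For CORT under isotype it was 1 with DESeq2's Wald test (Gls2, 5.91%) and 2 at an unadjusted p (15.6%). With each liver left out in turn it was 0 to 2, the 2 without Isotype + CORT replicate 4 (2.36%). For the antibody under CORT it was 1 at an unadjusted p (12.5%). For CORT under the antibody it was 3 at an unadjusted p (12.7%). It was 0 to 1 there with each liver left out, the 1 without αACBP + CORT replicate 5 (1.58%). For the antibody under vehicle it was 1 with DESeq2 (Otc, 14.3%) and 1 with at least 10 counts in every liver (Otc, 10.3%). It was 1 in a fit of the groups compared alone (Cps1, 6.9%) and 1 with limma's voom (Otc, chosen after seeing the data, 11.5%). At an unadjusted p it was 4 (20.6%). For the interaction it was 2 at an unadjusted p (10.6%). The cause was not tested. DESeq2's size factors, no filter beyond 1 count, library sizes without the 20 most abundant genes and a fold limit of 2 left the number at 0 in all 6 comparisons.

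The replicate numbers did not pair the livers. Over 30 same-numbered pairs, the correlation of deviations from the group means lay between -0.0999 and 0.0969, and 3 of 20 livers correlated best with their own number. With the replicate block 0 members passed in any comparison, and the signs of Cps1 and Asl for the antibody under CORT (0.033 and 0.048), of Asl for the antibody under vehicle (-0.016) and of Asl in the interaction (0.064) turned. With voom the signs of Cps1 (-0.0058) and Arg1 (-0.069) for CORT under the antibody turned.

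Leaving out 1 liver turned the sign of values near 0 in 40 of 630 refitted values. Over these fits the log2 fold change lay, for CORT under isotype, between -0.34 and 0.022 for Asl, -0.25 and 0.030 for Slc25a15 and -0.31 and 0.012 for Slc7a2. For the antibody under CORT it lay between -0.27 and 0.32 for Cps1, -0.14 and 0.089 for Otc, -0.16 and 0.19 for Asl and -0.049 and 0.23 for Slc25a15. For CORT under the antibody it lay between -0.13 and 0.19 for Arg1 and -0.11 and 0.026 for Gls2. For the antibody under vehicle it lay between -0.14 and 0.14 for Asl. For αACBP + CORT against Isotype + Vehicle it lay between -0.044 and 0.098 for Nags and -0.093 and 0.10 for Slc25a15, and in the interaction between -0.18 and 0.18 for Asl. Depth did not limit the members, which lay at 57.8 CPM or more in every liver.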

Other observations

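Arg2, Slc7a1 and Slc25a2, relatives of the members, were at low levels in these livers, with the floor of 3 counts at no more than 0.201 CPM. Arg2, the mitochondrial arginase of tissues such as kidney, had group means between 0.56 and 2.06 CPM. Slc7a1, the cationic amino acid transporter of most other tissues, had group means between 0.34 and 0.83 CPM. Slc25a2, a relative of Slc25a15, had group means between 0.63 and 1.76 CPM.

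Odc1, which makes the polyamine putrescine from ornithine, had a mean of 48.7 ± 46.2 CPM (SD, n = 5) in Isotype + CORT against 21.1 ± 7.62 CPM in Isotype + Vehicle. The 5 Isotype + CORT livers ranged from 21.3 to 130 CPM with a median of 27.2 CPM. The fitted value was 1.20 (SE 0.43, adjusted p = 0.142, edgeR), and DESeq2 gave an adjusted p of 0.0332. Sirt5, a deacylase that acts on Cps1, lay at 16.1 ± 2.87 CPM in Isotype + Vehicle and 9.37 ± 3.71 CPM in Isotype + CORT (-0.78, adjusted p = 0.145, edgeR).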
